A study of Mus musculus with 12 samples.

Results

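A set of 10 genes, grouped here as genes of resting Mueller glia, was followed across all samples: Glul, Slc1a3, Aqp4, Dkk3, Car14, Sox9, Sox2, Hes1, Abca8a and Clu. They were taken by gene name, and all 10 were found among the 32867 genes with deposited counts and FPKM values (reads scaled to gene length and to the reads counted). Whole-retina RNA had been sequenced from 12 samples in 4 groups of 3. The C3H wild-type group held 1 sample each at postnatal day 13, day 23 and day 29 according to the labels. The models were Pde6b rd1 mice at day 13, Pde6b rd10 mice at day 23 and Prph rd2 mice at day 29, each age given as the time when photoreceptor death peaks in that model. The rd1 and rd10 alleles are a retroviral insertion and a point mutation in Pde6b, a subunit of the rod phosphodiesterase, and the rd2 allele disrupts Prph2, a structural protein of outer segments. According to the study's methods, rd1 and rd2 were on the C3H background and rd10 on C57Bl6/J, whereas the labels give C57BL6/J for Prph rd2, and mice were used irrespective of sex. Mutation and strain therefore cannot be told apart in Pde6b rd10 and, by the labels, in Prph rd2, and the models also differ from each other in age. By the labels the C3H group spans 3 ages, so age also differs between each model and C3H.

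Mueller glia span the whole retina and are its main glial cell. They clear glutamate from the synaptic layers and convert it to glutamine, carry water and potassium toward the vitreous and the vessels, buffer acid, and secrete proteins into the space around photoreceptors. When photoreceptors are injured, Mueller glia are known to become reactive, with more Gfap and often less of the proteins used for these daily tasks. Several of the 10 genes are also expressed elsewhere. Astrocytes also express Slc1a3, Aqp4, Sox9, Sox2 and Clu, some amacrine cells express Sox2, and the pigment epithelium expresses Car14. In RNA from whole retina, fewer cells of a type and less RNA per cell cannot be told apart.

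Each sample held between 17049495 and 24755890 counted reads. Pde6b FPKM lay between 56.7 and 57.6 in Pde6b rd1 against 241 to 245 in C3H, and Prph2 FPKM between 421 and 482 in Prph rd2 against 885 to 976. Xist, which is transcribed from the inactive X chromosome, lay between 0.386 and 0.518 CPM (counts scaled to the normalised library size) in C3H, 715 and 802 in Pde6b rd10, 1560 and 1980 in Prph rd2, and 3660 and 3890 in Pde6b rd1. The Y-linked Ddx3y was at 0 in all 3 Pde6b rd1 samples, between 31.7 and 37.9 CPM in Prph rd2, 56.3 and 70.9 in Pde6b rd10, and 77.8 and 86.9 in C3H. Every Prph rd2 and Pde6b rd10 sample thus held both Xist and Y-linked RNA, which a single male or female animal would not give. The Pde6b rd1 samples held Xist and no Ddx3y, and the C3H samples held Ddx3y and hardly any Xist. Mutation and sex therefore cannot be told apart in Pde6b rd1 against C3H. Sex changed with the other groups as well, and its part in the results was not tested. Samples of 1 group were close to each other: among 10561 genes with a mean of at least 10 CPM, the highest sample exceeded the lowest by 1.5-fold or more in 0.18% of genes in C3H, 0.18% in Pde6b rd1, 0.691% in Prph rd2 and 0.256% in Pde6b rd10. The study calls the samples of a group biological replicates, but the sources used here do not say how many animals each holds. Whether samples of a group share animals is not known either. The p-values measure only the spread between these samples, which need not be the spread between animals.

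The 10 genes differed widely in level. In C3H, Glul was the highest at 528 ± 7.37 FPKM (mean ± SD, n = 3), the 13th of 19616 genes kept by the filter on low counts. Dkk3 followed at 166 ± 3.12, Clu at 64.0 ± 0.754, Slc1a3 at 50.1 ± 0.376 and Abca8a at 42.7 ± 0.685 FPKM. Aqp4 at 24.5 ± 0.568 and Car14 at 23.1 ± 0.369 FPKM came next. The transcription factors were lowest, with Sox2 at 13.9 ± 0.536, Sox9 at 7.39 ± 0.330 and Hes1 at 7.11 ± 0.564 FPKM, and Sox9 and Hes1 were the only neighbours in this order whose C3H samples overlapped. Glul and Dkk3 kept the first and second places in every group. In the order of all genes, Clu went from place 402 in C3H to 1446 in Pde6b rd1, 231 in Prph rd2 and 45 in Pde6b rd10, and Aqp4 from place 1711 in C3H to 5291 in Pde6b rd1.

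**Figure D1:**
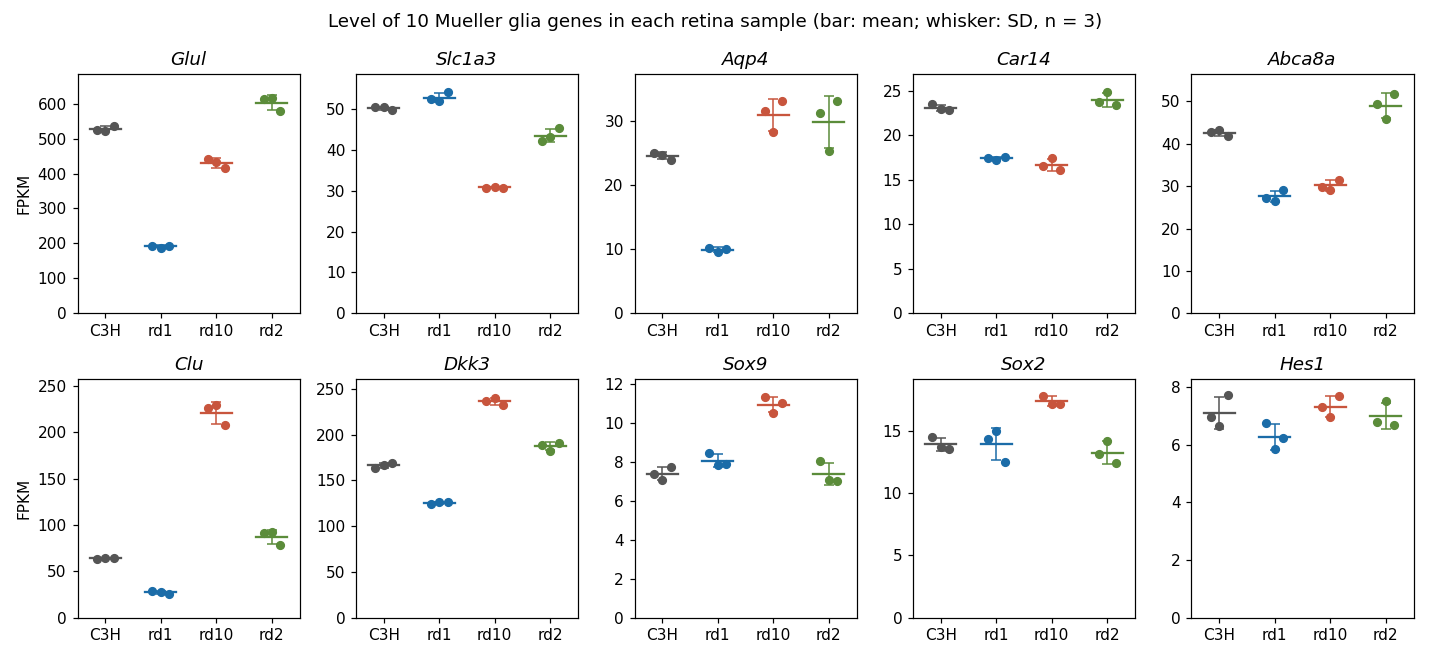
FPKM of each gene in every sample, with 1 panel per gene and its own vertical axis from 0. Points are samples, the bar is the mean of a group and the whisker its SD (n = 3). Glul, Aqp4 and Clu are lowest in Pde6b rd1, Slc1a3 is lowest in Pde6b rd10, and Clu reaches 208 to 230 FPKM in Pde6b rd10.

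The 3 C3H samples were nearly flat over their labelled days. The ratio of the highest to the lowest C3H sample lay between 1.00 for Slc1a3 and 1.18 for Hes1 across the 10 genes. Glul measured 524, 523 and 536 FPKM at days 13, 23 and 29. With 1 sample per day there is no test of age. Over 10561 genes with a mean of at least 10 CPM they were also as alike as the 3 Pde6b rd1 samples of a single day, with 0.18% of genes apart by 1.5-fold or more in both groups, and whether the labelled days of C3H are right could not be checked. In a fit against the C3H sample of a model's own labelled day alone, the called genes among the 10 were the same in each of the 3 models. That fit has 1 C3H sample, whose spread is assumed to be that of the 3 model samples, and it is no test of age. As a value with no test, against that sample the log2 ratio of the Pde6b rd1 mean was -1.54 for Glul, -1.43 for Aqp4, -1.30 for Clu and -0.72 for Abca8a. For Pde6b rd10 it was 1.73 for Clu and -0.76 for Slc1a3, and for Prph rd2 the largest of the 10 was 0.39, for Clu.

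Each model was compared with C3H by edgeR's quasi-likelihood test on the counts. The call rule was an unadjusted p under 0.05 together with a difference of 1.5-fold or more, and adjusted p-values are Benjamini-Hochberg values over all genes tested. The 10 genes and the lists below were chosen with earlier results of these data known. Their counts beside the share over all genes are therefore a description. In Pde6b rd1, 4 of the 10 genes were lower than in C3H and 0 were higher, where 6.03% of 18310 genes were called lower and 8.98% higher. For 7 of the 10, the Pde6b rd1 and C3H samples did not overlap, which held for 51.8% of all genes. The median log2 fold change was -0.48 over the 10 genes and -0.01 over all genes. In Pde6b rd10, 1 gene was higher and 1 lower, against 15.9% and 8.08% of 18704 genes, and 9 of 10 did not overlap with C3H, against 59.2%. The median was 0.13, with 5 genes above C3H and 5 below.

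In Prph rd2, 0 of the 10 genes were called in either direction by edgeR, and 0 by DESeq2. At an unadjusted p under 0.05 alone, both tools had 5 genes above C3H and 1 below. The share of all genes under that threshold alone was not counted, so these genes have no background to be set against. The weakest of them by edgeR, Aqp4, ranked only 2015 of 18581 genes. The shares that follow are for the full call rule, which also asks for 1.5-fold. Of 18581 genes, 2.68% were called higher and 1.89% lower, so a count of 0 among 10 genes is near that background. For 5 of the 10, the Prph rd2 and C3H samples did not overlap, against 28.8% of all genes. The direct contrast of Pde6b rd10 with Pde6b rd1, in a fit of all 12 samples, called 4 of the 10 genes higher and 1 lower, against 17.6% and 11.2% of 19616 genes. Here 9 of 10 did not overlap, against 63.2% of all genes.

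**Figure D2:**
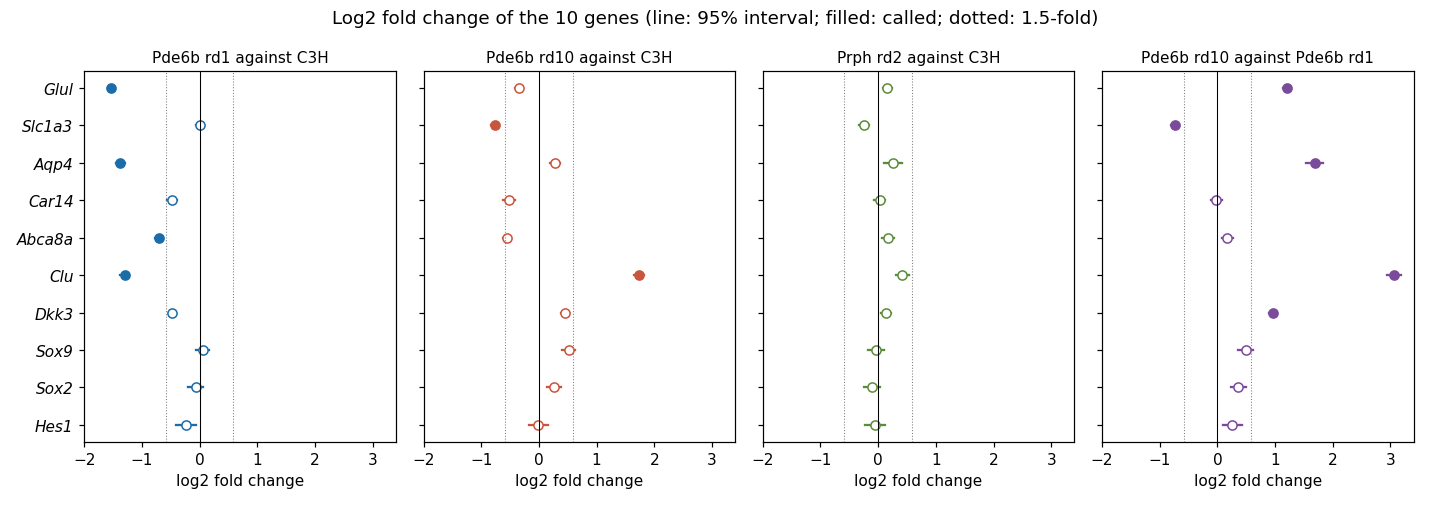
Log2 fold change of the 10 genes in the 4 comparisons. Points are edgeR estimates, lines 95% intervals, filled points called genes, and dotted lines mark a change of 1.5-fold. In Pde6b rd1 the 4 filled points lie between -1.54 and -0.70, in Pde6b rd10 Clu lies at 1.73 and Slc1a3 at -0.76, and Prph rd2 has no filled point.

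Glul encodes glutamine synthetase, which joins glutamate and ammonia into glutamine. Slc1a3 encodes GLAST, the glutamate transporter that brings glutamate into the cell. Glul lies at chr1:153899944-153909723 (plus strand) and Slc1a3 at chr15:8634124-8710764 (minus strand) in GRCm38. The 250 bases before the RefSeq start of Glul, Slc1a3 and Abca8a are shown because Glul and Abca8a fell in Pde6b rd1 and Slc1a3 in Pde6b rd10. They are sequences of GRCm38.p6, which were found for 5 of the 10 genes, and each is written on the strand of its gene. The RefSeq starts do not coincide with the gene positions given above, which are those of GENCODE, and the bases shown for Abca8a reach into its GENCODE gene.
Glul, chr1:153899679-153899928, plus strand: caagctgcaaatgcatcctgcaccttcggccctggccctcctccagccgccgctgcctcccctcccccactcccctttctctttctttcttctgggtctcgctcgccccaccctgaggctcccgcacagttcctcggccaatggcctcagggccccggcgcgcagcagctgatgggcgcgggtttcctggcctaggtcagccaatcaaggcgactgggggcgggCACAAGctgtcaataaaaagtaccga
Slc1a3, chr15:8710808-8711057, minus strand: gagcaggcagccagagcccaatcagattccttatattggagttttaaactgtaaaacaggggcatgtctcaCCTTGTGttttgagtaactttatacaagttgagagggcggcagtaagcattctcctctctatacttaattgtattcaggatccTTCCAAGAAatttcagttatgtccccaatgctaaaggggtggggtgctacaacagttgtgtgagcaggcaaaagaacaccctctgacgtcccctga
Abca8a, chr11:110095938-110096187, minus strand: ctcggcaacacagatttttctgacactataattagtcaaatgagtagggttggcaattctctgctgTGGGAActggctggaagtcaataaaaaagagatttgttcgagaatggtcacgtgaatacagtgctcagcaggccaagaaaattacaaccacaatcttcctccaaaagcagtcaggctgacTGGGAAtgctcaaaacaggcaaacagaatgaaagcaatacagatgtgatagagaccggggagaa
Capitals mark matches to 4 short motifs, searched on both strands. They are the RBPJ motif TGGGAA, the N-box CACNAG bound by HES proteins, the SOX motif ACAANG and the STAT motif TTCNNNGAA, held by 21.6%, 36.7%, 36.3% and 7.02% of 32851 promoters of this length. Glul holds an N-box from base -26, where -1 is the last base shown. Slc1a3 holds an N-box on the other strand from base -178, which overlaps a SOX match from base -179, and a STAT match from base -96. Abca8a holds the RBPJ motif at -184 and -64. Sox2 holds a SOX match at -206 and Car14 none of the 4. A match is a run of letters and does not show a bound site.

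Glul fell in Pde6b rd1, and Slc1a3 was not called there. Glul measured 524, 523 and 536 FPKM in the C3H samples and 194, 188 and 193 in the Pde6b rd1 samples. Its log2 fold change was -1.54 (SE 0.027, adjusted p = 8.7e-23), 2.9-fold lower. Slc1a3 measured 50.4, 50.4 and 49.7 FPKM in C3H and 52.4, 51.9 and 54.0 in Pde6b rd1. The Slc1a3 groups overlapped after normalisation, with means of 442 and 435 CPM, and the 95% interval of the log2 fold change ran from -0.06 to 0.06. No change of 1.5-fold lies within that interval.

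In Pde6b rd10, Slc1a3 was called and Glul was not. Slc1a3 measured 30.7, 31.0 and 30.6 FPKM, below every C3H sample, and fell by 0.76 on the log2 scale (SE 0.035, adjusted p = 1.17e-13), 1.69-fold. Glul measured 442, 433 and 415 FPKM in Pde6b rd10, also below every C3H sample, but its log2 fold change of -0.35 (adjusted p = 1.21e-08) stayed under 1.5-fold. Between the Pde6b models, Glul was 2.31-fold higher in Pde6b rd10 (log2 1.21, SE 0.036, adjusted p = 2.46e-16) and Slc1a3 was 1.66-fold lower (log2 -0.73, SE 0.038, adjusted p = 1.34e-12). In Prph rd2, Glul measured 613, 617 and 579 FPKM and Slc1a3 measured 42.2, 43.0 and 45.2. Both groups lay apart from C3H, with log2 fold changes of 0.16 (adjusted p = 0.0206) and -0.24 (adjusted p = 0.00299) that were too small to be called.

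The other 9 genes of glutamate handling included 1 that fell and 0 that rose in Pde6b rd1, with a median log2 fold change of -0.11. That gene was Slc38a3, a glutamine transporter, at -0.71 (adjusted p = 4e-14). Over all genes, 6.03% were called lower and 8.98% higher in Pde6b rd1, and 8.08% and 15.9% in Pde6b rd10. The counts of this list are near that background in both models. In Pde6b rd10, Slc7a11, the cystine-glutamate exchanger, rose by 2.42 on the log2 scale (adjusted p = 2.27e-14), and Slc38a5, another glutamine transporter, fell by 1.15 (adjusted p = 2.36e-06). Slc38a5 also fell in Prph rd2, by 0.77 (adjusted p = 0.00339). Slc1a2, the glutamate transporter GLT-1, was called in no comparison with C3H, with log2 fold changes of 0.11, 0.13 and 0.00 in the rd1, rd10 and rd2 models.

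Aqp4, the water channel of glial endfeet, fell in Pde6b rd1. It measured 25, 24.6 and 23.9 FPKM in C3H and 10.2, 9.50 and 10 in Pde6b rd1, a 2.6-fold lower level (log2 -1.38, SE 0.040, adjusted p = 1.74e-18). In Pde6b rd10 it measured 31.5, 28.2 and 33.0 FPKM and in Prph rd2 31.1, 25.3 and 33.1. Every Pde6b rd10 sample lay above every C3H sample, with a log2 fold change of 0.28 (adjusted p = 4.89e-05) that was not called. The second Prph rd2 sample was the low one, and at 158 CPM it lay within the C3H range of 155 to 160 CPM. The log2 fold change in Prph rd2 was 0.25 (adjusted p = 0.0616). Set directly against Pde6b rd1, Aqp4 was 3.21-fold higher in Pde6b rd10 (log2 1.68, SE 0.079, adjusted p = 3.2e-13).

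Car14, a membrane-bound carbonic anhydrase that hydrates carbon dioxide outside the cell, had almost the same level in both Pde6b models. It ranged from 22.8 to 23.5 FPKM in C3H, 17.2 to 17.6 in Pde6b rd1, 23.4 to 24.9 in Prph rd2 and 16.1 to 17.4 in Pde6b rd10. Its log2 fold changes of -0.48 in Pde6b rd1 (adjusted p = 8.83e-09) and -0.52 in Pde6b rd10 (adjusted p = 4.25e-08) were under 1.5-fold, though neither model overlapped with C3H. The contrast of the Pde6b models was -0.02, with a 95% interval from -0.12 to 0.08. Car14 shares 445 exonic bases, 17.5% of its exons, with Aph1a on the opposite strand, and the strand setting of the counting is not given in the sources used here.

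Of 15 other genes for water, potassium and acid-base balance, 2 fell and 0 rose in Pde6b rd1, against 6.03% and 8.98% of all genes. Kcnj10, the potassium channel Kir4.1 that sits beside Aqp4 in the endfoot, fell by 1.10 on the log2 scale (adjusted p = 2.91e-15), and Mlc1, a glial membrane protein, fell by 0.69 (adjusted p = 1.01e-10). In Pde6b rd10, 2 of the 15 rose and 1 fell, near the background of 15.9% and 8.08% of all genes. Gja1, which encodes connexin 43, rose by 2.27 (adjusted p = 1.06e-15) and Kcnk1, a potassium leak channel, rose by 1.49 (adjusted p = 5.64e-13). Kcnj10 was not called there, at -0.15 (adjusted p = 0.0119). Prph rd2 had 0 of the 15 called by edgeR, with a median of -0.07.

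Clu encodes clusterin, also called apolipoprotein J, a secreted chaperone. It went down in 1 Pde6b model and up in the other. Clu measured 63.2, 64.3 and 64.6 FPKM in C3H. The Pde6b rd1 samples held 28.4, 28.1 and 25.6 FPKM, 2.46-fold lower (log2 -1.30, SE 0.039, adjusted p = 2.46e-18). The Pde6b rd10 samples held 226, 230 and 208 FPKM, 3.33-fold higher than C3H (log2 1.73, SE 0.041, adjusted p = 2.3e-18). No sample of either model overlapped with C3H. The direct contrast was the largest among the 10 genes, with Pde6b rd10 8.34-fold above Pde6b rd1 (log2 3.06, SE 0.059, adjusted p = 4.84e-19). In Prph rd2, at 91.4, 92.1 and 78.9 FPKM, Clu lay above every C3H sample with a log2 fold change of 0.42 (adjusted p = 0.000255), under 1.5-fold.

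Dkk3, a secreted glycoprotein of the dickkopf family, differed between the models in the same order as Clu with smaller steps. It measured 163, 167 and 169 FPKM in C3H, 124, 126 and 126 in Pde6b rd1, 237, 240 and 232 in Pde6b rd10, and 189, 182 and 191 in Prph rd2. None of the 3 models overlapped with C3H, and none was called, with log2 fold changes of -0.48, 0.45 and 0.14. Between the Pde6b models the difference was 1.94-fold (log2 0.96, SE 0.036, adjusted p = 8.74e-15). Of 9 other genes, of the dickkopf family or secreted Wnt antagonists, 8 were among the counted genes and 4 passed the filter on low counts. Among these 4, Sfrp2 fell in Pde6b rd10, by 0.80 (adjusted p = 0.00535), where 8.08% of all genes were called lower. In the other models 0 of the 4 were called by edgeR.

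The next list held 8 lipid and chaperone genes that act with clusterin or beside it. Of 7 tested in Pde6b rd1, 2 fell and 0 rose, among them Apoe, the main apolipoprotein of glia, by 0.59 (adjusted p = 2.16e-09). In Pde6b rd10, 6 of 8 rose, among them Apoc1 by 1.76, Apoe by 1.28, the cholesterol exporter Abca1 by 1.05 and the lipase Lpl by 0.84 on the log2 scale, while Lrp2, the megalin receptor that binds clusterin, fell by 0.67. Apoc1 was filtered out in the other models. Lrp2 rose in Prph rd2, by 0.70 (adjusted p = 5.21e-07), the only called gene of that list there. The list medians in the rd1, rd10 and rd2 models were -0.37, 0.72 and 0.02. Over all genes, 8.98%, 15.9% and 2.68% were called higher in these models, and 6.03%, 8.08% and 1.89% lower.

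Abca8a, a transporter of the ABC family on chromosome 11, fell in Pde6b rd1. It measured 42.8, 43.3 and 41.9 FPKM in C3H and 27.1, 26.6 and 29.1 in Pde6b rd1, 1.63-fold lower (log2 -0.70, SE 0.036, adjusted p = 9.68e-14). Pde6b rd10, at 29.8, 29.2 and 31.5 FPKM, was nearly as low, with a log2 fold change of -0.56 (adjusted p = 1.22e-10), just under 1.5-fold at 1.47-fold. The contrast of the Pde6b models was 0.17 (adjusted p = 0.00616). Prph rd2 lay above C3H at 49.3, 45.9 and 51.8 FPKM, with a log2 fold change of 0.17 (adjusted p = 0.0579).

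The 4 related genes Abca5, Abca6, Abca8b and Abca9 lie in the same cluster on chromosome 11, and how reads shared by such similar genes were assigned cannot be seen from the counts. None of the 4 was called against C3H in any model by edgeR. In Pde6b rd10 their log2 fold changes ran from 0.01 to 0.54, whereas that of Abca8a was -0.56. In the contrast of the Pde6b models, Abca6 at 1.03, Abca9 at 0.81 and Abca8b at 0.70 were called higher in Pde6b rd10. Over all genes, 17.6% were called higher in that contrast.

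The transcription factors Sox9, Sox2 and Hes1 were called in no comparison. Sox9 and Sox2 hold glial and progenitor identity, and Hes1 is a repressor induced by Notch. Sox9 ranged from 7.08 to 7.74 FPKM in C3H, 7.84 to 8.43 in Pde6b rd1, 7.02 to 8.05 in Prph rd2 and 10.5 to 11.3 in Pde6b rd10. Only Pde6b rd10 stood apart after normalisation, with a log2 fold change of 0.52 (SE 0.060, adjusted p = 2.92e-07), 1.43-fold. Sox2 ranged from 13.5 to 14.5 FPKM in C3H, 12.5 to 15 in Pde6b rd1, 12.4 to 14.2 in Prph rd2 and 17.1 to 17.8 in Pde6b rd10, with a log2 fold change of 0.26 in Pde6b rd10 (adjusted p = 0.00095). Hes1 lay between 5.85 and 7.73 FPKM in all 12 samples. Its largest log2 fold change against C3H was -0.24 in Pde6b rd1 (adjusted p = 0.0301), and its 95% interval in Pde6b rd10 ran from -0.18 to 0.16. Sox2 lies within the long noncoding Sox2ot and shares 0 exonic bases with it.

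Of 27 other genes of glial fate and Notch signalling, 26 were tested. In Pde6b rd1, 3 rose and 1 fell, near the background of 8.98% and 6.03% of all genes. The Notch ligand Dll3 rose by 0.87 and Nfib, a factor of late progenitors and glia, by 0.76, while the Notch ligand Jag1 fell by 0.78. In Pde6b rd10, 2 rose and 4 fell, against 15.9% and 8.08% of all genes. Rbpj, the DNA-binding partner of Notch, rose by 1.07 and its ligand Dll1 by 0.59. Hes5 fell by 2.12 (adjusted p = 2.11e-12), where its relative Hes1 had a log2 fold change of -0.01. Dll3 fell there by 1.04 and Heyl by 0.60. Prph rd2 had 0 of 26 called by edgeR, and the medians of the list were 0.02, -0.01 and -0.16 in Pde6b rd1, Pde6b rd10 and Prph rd2.

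**Figure D3:**
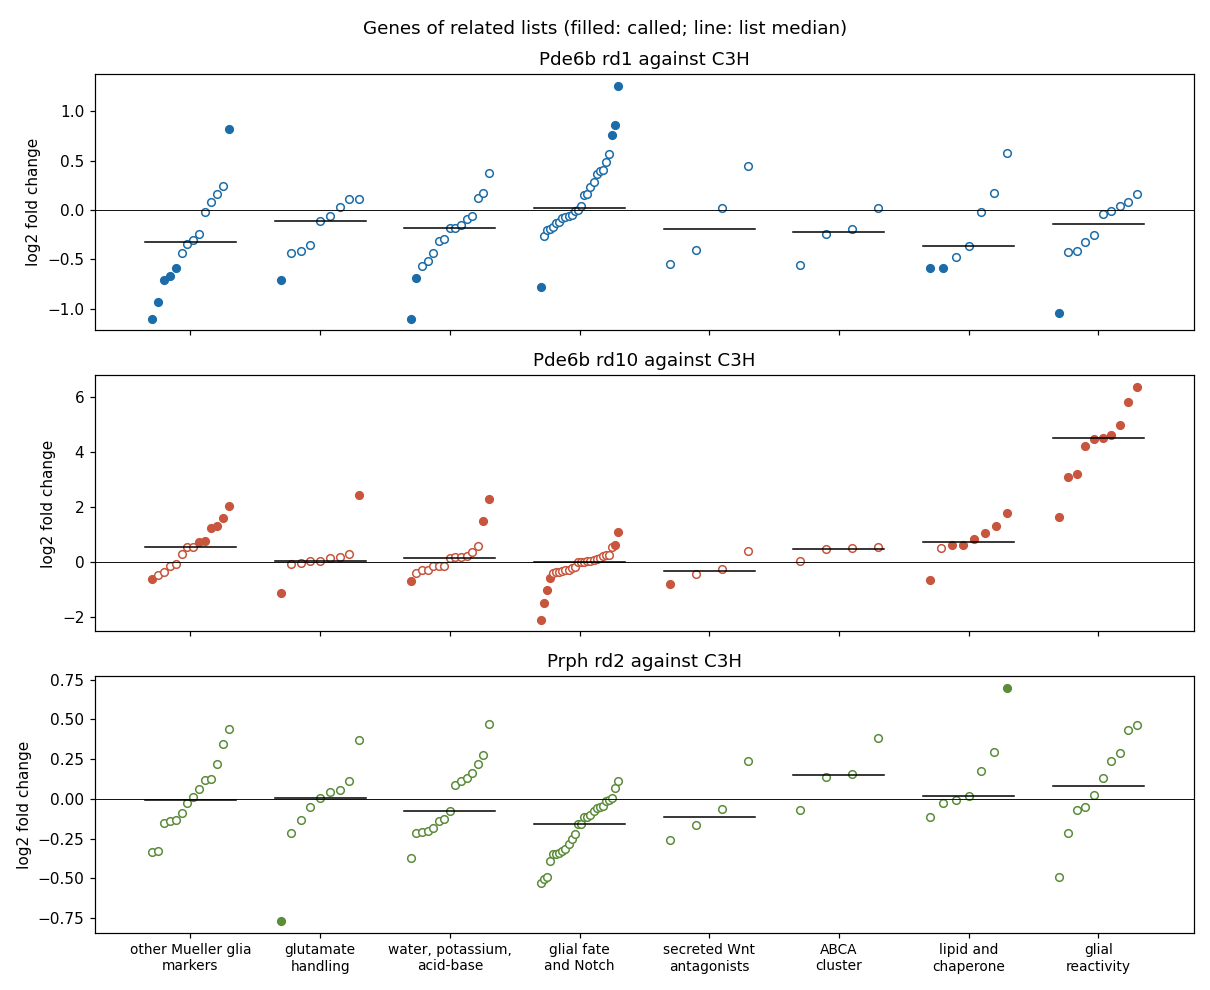
Log2 fold change against C3H of each gene in 8 related lists, with 1 panel per model and a different vertical range in each. Points are genes in order of their value within a list, filled where called, and the horizontal line is the list median. In Pde6b rd10 all 10 genes of glial reactivity are called higher, around a median of 4.50, and in Prph rd2 only Slc38a5 and Lrp2 are called.

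The drop of Glul, Aqp4, Clu and Abca8a in Pde6b rd1 was set beside 14 other Mueller glia markers, of which 5 fell and 1 rose there (median -0.32). These were Kcnj10, Slc38a3 and Apoe, named above, Spc25 at -0.94 and Timp3 at -0.67, and Crym, which binds thyroid hormone, rose by 0.82. In Pde6b rd10, where Clu rose and Slc1a3 fell, 6 of the 14 rose and 1 fell (median 0.55), led by Cp, the copper protein ceruloplasmin, at 2.02. Rlbp1, the retinaldehyde-binding protein of Mueller glia, was not called in any model. Over all genes, 6.03% were called lower and 8.98% higher in Pde6b rd1, and 8.08% and 15.9% in Pde6b rd10. None of the 14 was called in Prph rd2 by edgeR. Their summed level was 2030 to 2130 CPM in C3H, 1760 to 1770 in Pde6b rd1, 2020 to 2080 in Prph rd2 and 2880 to 2990 in Pde6b rd10.

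All 10 markers of glial reactivity rose in Pde6b rd10 (median 4.50), where 15.9% of all genes were called higher. Gfap lay at 3.19 (adjusted p = 2.21e-21), and the sum of the 10 markers was 1480 to 1530 CPM there. In C3H the sum was 149 to 166 CPM, in Pde6b rd1 152 to 156 and in Prph rd2 154 to 164. Only Serpina3n was called in the latter models, lower in Pde6b rd1 (log2 -1.05, adjusted p = 0.0154). By mean FPKM, Glul, Aqp4, Clu, Abca8a, Dkk3 and Hes1 were lowest in Pde6b rd1, where the sum of the reactivity genes lay within its C3H range. In Pde6b rd10, where that sum was highest, Slc1a3 and Car14 were lowest and Aqp4, Clu, Dkk3, Sox9, Sox2 and Hes1 highest, though for Hes1 and Aqp4 the samples of several groups overlapped.

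Markers of other cells moved with the groups, and their part in the levels of the 10 genes was not tested. Over all genes, 6.03%, 8.08% and 1.89% were called lower in the rd1, rd10 and rd2 models, and 15.9% higher in Pde6b rd10. Of 10 rod markers, 7, 6 and 3 were called lower in the rd1, rd10 and rd2 models, with sums of 27600 to 28600 CPM in C3H, 13600 to 13700 in Pde6b rd1, 17900 to 19100 in Prph rd2 and 22800 to 23800 in Pde6b rd10. The 5 astrocyte markers summed to 407 to 444 CPM in Pde6b rd10 and to 86.1 to 112 in the other groups, with Gfap at 3.19 and Aldh1l1 at 1.30 called higher. The other astrocyte markers were not called there, with S100b at -0.36, Pdgfra at -0.20 and Pax2 at -0.11, and the list median was -0.11. Gfap also counts among the reactivity markers. The 10 microglia markers summed to 316 to 336 CPM in Pde6b rd10, 9 of them called higher, and to 99.8 to 116 in the other groups. Pigment epithelium markers summed to 26.6 to 31.0 CPM in Pde6b rd1, 4 of 7 tested called lower, and to 42.8 to 50.8 in the other groups. The sums of vessel, amacrine and lens markers were also lowest in Pde6b rd1, where Glul, Aqp4, Clu and Abca8a fell. Vessel markers summed to 201 to 214 CPM there and 276 to 302 in the other groups. Amacrine markers summed to 781 to 801 against 932 to 1070, and lens markers to only 2.62 to 2.73 against 4.14 to 5.59. Few were called: in Pde6b rd1, 1 of 7 vessel, 0 of 7 amacrine and 1 of 3 tested lens markers were lower. The amacrine Tfap2a (log2 0.15) and Tfap2b (0.12) and the vessel Egfl7 (0.03) lay above C3H there, none of them called. Lim2 of the lens, at 0 in Prph rd2, was the only marker of these cells without counts in a whole group.

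The gene whose log2 CPM was most like that of each member over the 12 samples was searched among the other 19606 genes kept by the filter. Clu was most like Mmp9, a secreted matrix protease (Pearson's r = 0.996), and Dkk3 most like Emb (r = 0.995). Slc1a3 was most like Mrpl49 (r = 0.995), Glul like Tmem38a (r = 0.994), Aqp4 like Hspa12a (r = 0.992), Car14 like Rims4 (r = 0.989) and Abca8a like Pex5l (r = 0.989). For Sox9 it was Zfp984 and for Sox2 it was Irak4, both with r = 0.986. The lowest of the 10 best values was that of Hes1 with Sharpin (r = 0.929). Between the members themselves r ranged from -0.891, for Slc1a3 with Sox9, to 0.985, for Dkk3 with Clu, with a median of 0.403 over 45 pairs. The 12 samples form 4 groups, so these values mostly describe the order of 4 group means.

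Circular RNAs, read by their coordinates, were listed at 2 of the 10 genes, with 5 junction reads in all. The share of all genes that hold a circular RNA was not counted, so this is a description. Of 12510 circular RNAs with deposited junction counts, 1 lies in Car14 at chr3:95901093-95902131 and 1 in Abca8a at chr11:110051018-110053015. The first had 1 junction read in a Pde6b rd1 sample and 2 in a Pde6b rd10 sample, and the second had 2 in a Prph rd2 sample. The other 8 genes had none listed.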

How the data were processed

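RNA from 12 whole-retina samples was sequenced as directional libraries depleted of ribosomal RNA. The authors aligned the reads to GRCm38 and counted them per gene with HTSeq 0.11.2, and the deposited gene counts are not normalised. The submitters' processing notes list HISAT2, and the strand setting of the counting is not given in the sources used here. The deposited FPKM values scale them to gene length and to the total on genes. CircRNA junction counts were made by the authors with TopHat2 2.1.1 and CIRCexplorer, and their deposited circRNA TPM values, scaled to all junction reads of a sample, were not used here.

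Counts were tested in R 4.3.3 with edgeR 4.0.16, using TMM normalization, filterByExpr and the quasi-likelihood F test. The 3 samples of each model were compared with the 3 C3H samples, and Pde6b rd10 with Pde6b rd1 in 1 fit that held every group. Genes were called at an unadjusted p under 0.05 and at least 1.5-fold, and standard errors were the log2 fold change over the root of F. FPKM served for levels between genes. Alternatives used limma 3.58.1 on log2(FPKM + 1) or log2(FPKM + 0.1), DESeq2 1.42.0, other size factors, no filter, the adjusted p, a replicate block, other sets of samples and each replicate left out. The steps were tested on simulated data with the same spread for all genes and 200 genes changed 2-fold. Of the changed genes tested, 95.4% to 97.9% were recovered over the 4 comparisons. Changes near 1.5-fold were not simulated.

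All 10 members were named, with every sample's value where a call was made and ranges otherwise. Most genes of the other lists were named when called or among the largest changes of their list. Some that met neither condition, such as Slc1a2 and Rlbp1, were named as well. Members and lists were chosen with earlier results of these data known, and results for some list genes are not reported here. Positions came from GENCODE vM21 and promoters from RefSeq. Depth was 17049495 to 24755890 counts per sample, and intervals cover the spread between samples as fitted by edgeR.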

Additional observations from a re-analysis of the deposited data

Results flagged for a closer look

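In the direct contrast of both Pde6b models, in the fit of all 12 samples, 5 of the 10 genes were called. Their edgeR Benjamini-Hochberg adjusted p-values lay between 4.84e-19 and 1.34e-12. Over all genes, 17.6% were called higher and 11.2% lower in this contrast. Except for Car14, the other members also had an adjusted p under 0.05, at less than 1.5-fold. The weakest of them, Hes1 (adjusted p = 0.0156), ranked 9646 of 19616 genes by p. The log2 difference of Pde6b rd10 over Pde6b rd1 was 3.06 for Clu, 1.68 for Aqp4, 1.21 for Glul and 0.96 for Dkk3, and -0.73 for Slc1a3. All 3 Pde6b rd10 samples lay on 1 side of all 3 Pde6b rd1 samples for each of these 5 genes, as for 63.2% of all genes. The models also differ in labelled day, strain and sex, whose part was not tested. Groups of 3 are too small for a test of outlying values, but each sample was left out in turn and the calls among the 10 genes did not change.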

How the results depend on the processing

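The counts of called genes among the 10 equalled those reported in all 126 recalculations over the other settings, tools and sample sets, and 0 of 630 single-gene values changed their call. Of these values, 17 changed sign, all of genes that were not called. Sox2 in Pde6b rd1 was 0.002 with library totals only. Slc1a3 in Pde6b rd1 was -0.024 with all 12 samples in 1 fit, -0.01 against the C3H sample of the same day, and -0.022 to 0.016 with each replicate left out. Hes1 in Pde6b rd10 was 0.047 with library totals only, 0.038 and 0.043 by limma with 1 and 0.1 added, 0.085 against the C3H sample of the same day, and -0.061 to 0.057 with each replicate left out. Leaving out replicates gave -0.104 to 0.002 for Sox9 and -0.1 to 0.016 for Hes1 in Prph rd2, and -0.048 to 0.009 for Car14 between the Pde6b models. With library totals only, or by limma, Slc1a3 and Sox9 lay above C3H in Pde6b rd1 at an unadjusted p under 0.05, by less than 1.5-fold.

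The background moved more. Genes called higher and lower were 1645 and 1104 in Pde6b rd1, 2968 and 1511 in Pde6b rd10, 498 and 352 in Prph rd2, and 3451 and 2193 between the Pde6b models. By limma with 1 added they were 822 and 358, 1527 and 665, 73 and 101, and 1841 and 1205. In Prph rd2 they were 197 and 187 by the adjusted p, 765 and 515 by limma with 0.1 added, 733 and 567 without the filter, and 641 and 794 without the second Prph rd2 sample, which is also the low one for Aqp4.

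Same-numbered samples deviated together little (r between -0.071 and 0.136 over 12 pairs, above 0.1 in 3). Only same-numbered samples were compared, so a batch across numbers would not be seen. In C3H the number also goes with the labelled day. With the number as a replicate block, 0, 1 and 0 genes were called higher and 4, 1 and 0 lower in Pde6b rd1, Pde6b rd10 and Prph rd2. Between the Pde6b models, 4 were called higher and 1 lower.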
